A study of Mus musculus with 8 samples.

Results

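MBD sequencing, which captures fragments with methylated CpGs on a methyl-CpG-binding protein domain, was used to map methylated DNA in mouse small intestinal epithelium. Described here are 3 stretches of the mm9 genome, in parts of which peaks of the E12.5 libraries lay close together. They are chromosome 4 from 121000000 to 122500000, chromosome 5 from 14500000 to 15500000 and chromosome 8 from 19500000 to 20500000. Their members are the regions that result when the peaks of all 8 libraries are merged wherever they share at least 1 bp. Of 475861 such regions in the genome, 347 overlapped the 3 windows, 74 on chromosome 4, 161 on chromosome 5 and 112 on chromosome 8. The windows were chosen by their measured E12.5 peaks (presence in the E12.5 lists and absence from the others), so every comparison of E12.5 with the other groups below describes what chose them and carries no test.

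The 8 libraries formed 4 groups of 2 biological replicates, all of a mixed C57BL/6 and CD1 strain. The embryonic epithelium, taken at E12.5 and E14.5 (E for embryonic day), was sorted for EpCAM and against CD31, CD45 and dead cells, and neither the sex of the embryos nor how many went into a sample is given in the sources used here. Both adult groups came from males at postnatal day 60 that carried the Lgr5EGFP-Cre-ERT allele, which drives EGFP from the Lgr5 locus. One group was the high-EGFP intestinal stem cells (ISC) and the other enterocytes, which absorb nutrients, sorted by the gate used for the embryos. The comparison of the stages asked how methylation differs between the fetal gut epithelium, adult stem cells and their differentiated progeny. Peak lists hold no expression markers, so the labelled cell types were not checked here.

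In mammals, methylation sits mostly on CpG dinucleotides, is copied after replication by Dnmt1 and set anew by the Dnmt3 enzymes. Most of the genome outside CpG islands carries it. Tandem gene arrays are runs of genes that arose by repeated duplication. Their copies can be so alike that short reads cannot be placed on one copy alone, and their number can differ between mouse strains.

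The files give no gene names and no mm9 annotation was at hand, so the gene content of the windows, and with it their description as gene arrays, was not checked. No sequence was examined. A pair of regions alike in width and tags was found after the values were seen. The chromosome 5 regions at 14927490 to 14928384 and at 14944916 to 14945810 were both called in all 8 libraries, both 895 bp wide and 17426 bp apart from start to start. The first held 94 and 74 tags at E12.5, with 66 and 70 for E14.5, 50 and 76 for ISC and 69 and 55 for enterocytes. The second held 77 and 76 tags at E12.5, with 77 and 75 for E14.5, 53 and 75 for ISC and 66 and 60 for enterocytes. The tags of each library lay within 25% of each other. Among regions called in all 8 libraries and within 500 kb of each other, 25 pairs in the genome were alike to 1% in width and 25% in the tags of every library, and this was the only such pair in the 3 windows. Likeness of this kind says nothing of the sequence.

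Depth ranged from 31438314 to 55442400 tags per library. The E12.5 libraries were the deepest and held the smallest share of their tags in peaks, 7.46% and 9.84%, against 23.8% to 38.9% in the other 6. They also had the fewest peaks, 84990 and 100314 against 164157 to 338262. This difference in enrichment moves with every comparison of E12.5 below, and its part in those comparisons was not tested.

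As a share of their merged regions, the windows together were rich in E12.5 peaks against the genome and near the genome share at E14.5. By number of regions called, the chromosome 4 window was not rich. Its 1.5 Mb held 28 and 29 in the E12.5 replicates. The 1 Mb to its left held 40 and 41, and that to its right 64 and 55. The windows on chromosomes 5 and 8 held more than the 1 Mb on each side of them. Both E12.5 libraries had a peak in 127 of the 347 members (36.6%), against 7.93% of all regions. Both E14.5 libraries had one in 158 members (45.5%, against 43.7%), both ISC libraries in 137 (39.5%, against 31.4%) and both enterocyte libraries in 123 (35.4%, against 27.7%). E12.5 thus stood furthest from its own genome share, and by this count it reached the level of the adult groups. By window, both E12.5 libraries had a peak in 20 of 74 members on chromosome 4, 53 of 161 on chromosome 5 and 54 of 112 on chromosome 8. On chromosome 4 this was below the 36 at E14.5, the 29 in ISC and the 30 in enterocytes. On chromosome 5 it was below the 70 at E14.5 and the 54 in ISC, and above the 47 in enterocytes. On chromosome 8 it equalled the 54 called in both ISC libraries and exceeded the 52 at E14.5 and the 46 in enterocytes.

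In 100 kb bins, picked on the E12.5 calls after the values were seen and called crowded bins here, E12.5 peaks outnumbered the mean of the other 6 libraries in 3 bins on chromosome 4 (121600001 to 121900000), 4 on chromosome 5 (14800001 to 15200000) and 3 on chromosome 8 (19700001 to 19800000 and 19900001 to 20100000). In these bins both E12.5 libraries had a peak in 20 of 35 members on chromosome 4, 47 of 84 on chromosome 5 and 47 of 71 on chromosome 8. In the remaining bins they had one in 0 of 39, 6 of 77 and 7 of 41 members, that is 0%, 7.79% and 17.1%. The higher shares inside the bins and the lower ones outside follow in part from how the bins were picked, so they show where the E12.5 calls lay and nothing more.

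The densest single bin lay on chromosome 8 from 19900001 to 20000000, where 22.0 of 29 regions were called at E12.5 on average, with means of 19.5 for E14.5, 17.5 for ISC and 16.0 for enterocytes. The chromosome 5 bin from 14900001 to 15000000 had 19.0 of 23 regions called at E12.5, while E14.5 had 17, ISC 13 and enterocytes 9.50. The widest contrast on chromosome 4 was in the bin from 121600001 to 121700000, with 9.50 of 13 at E12.5 and 4.50 to 5.00 in the other groups. In each of these bins E12.5 had the highest mean, although its lists were the shortest. E12.5 also had the highest mean in the other crowded bins of chromosome 8, with 20.5 in that starting at 19700001 and 10 in that starting at 20000001. The next highest were 16.5 for E14.5 in the first and 9 for ISC in the second. In the remaining crowded bins, all on chromosomes 4 and 5, E14.5 was level with E12.5 or higher. On chromosome 4 both had means of 10.5 from 121700001 to 121800000 and of 5 from 121800001 to 121900000. On chromosome 5 E14.5 had 10, 14 and 16 in the bins starting at 14800001, 15000001 and 15100001, and E12.5 had 8.5, 13.5 and 15.5.

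**Figure D1:**
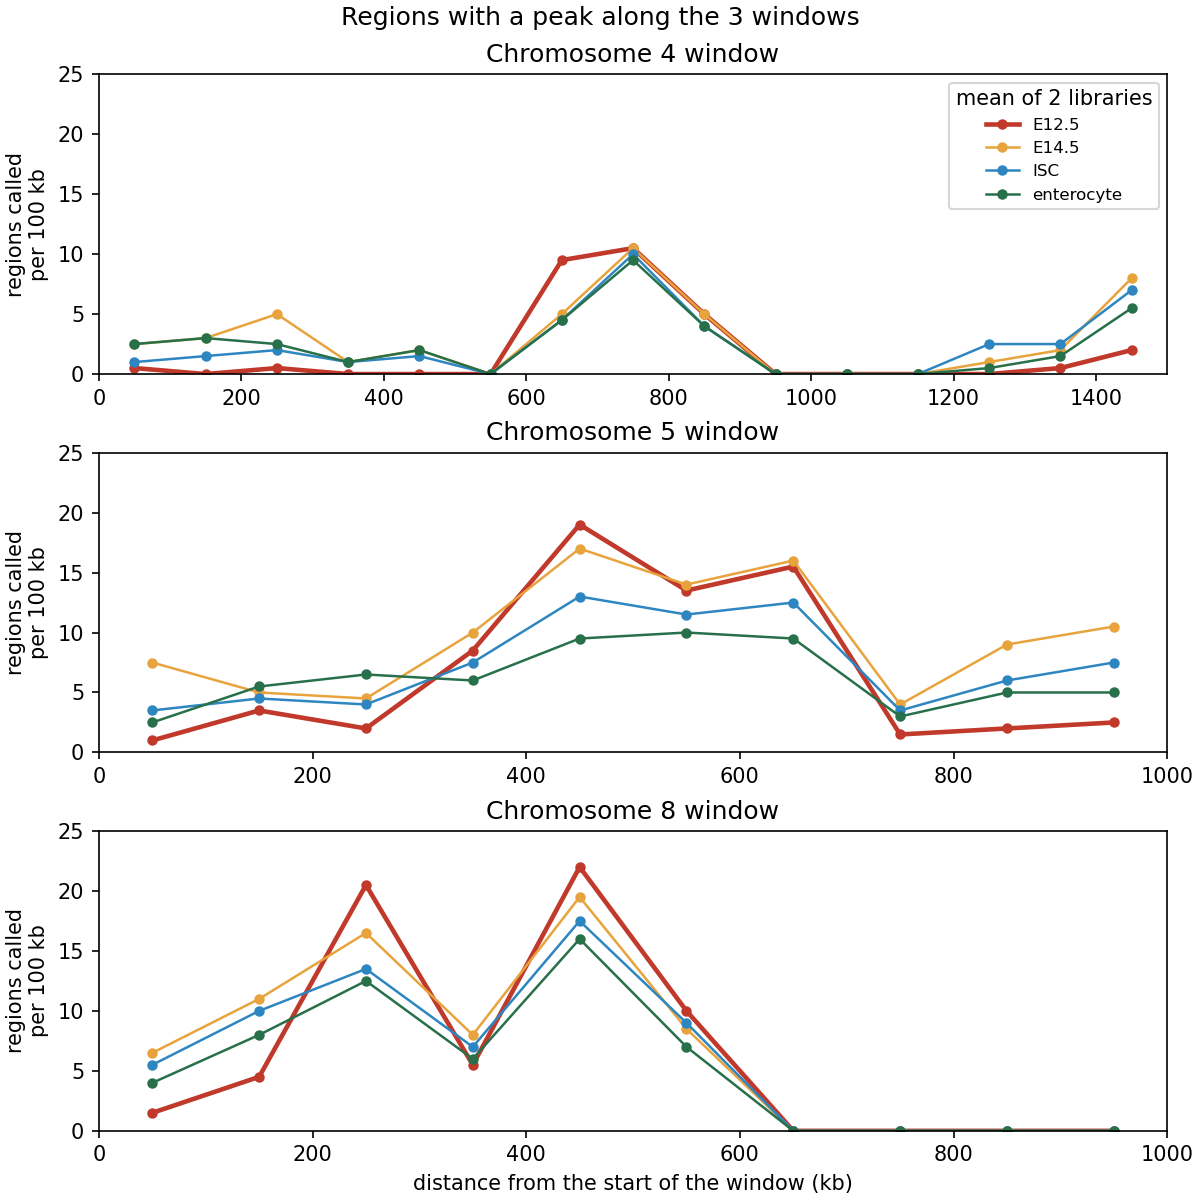
Number of regions with a peak per 100 kb (vertical axis, mean of the 2 libraries of each group) along the 3 windows (horizontal axis, distance from the window's start in kb). E12.5 rises to 22.0 regions per 100 kb on chromosome 8 and 19.0 on chromosome 5, above the other groups. In some other crowded bins it is level with or below E14.5. Outside the crowded bins it lies level with or below the other groups, or within their range.

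Long stretches of the windows held no peak of any library. On chromosome 4 none lay between 121819901 and 122253411, 434 kb that begin in the last of the crowded bins, nor in the 240 kb from 121405324 to 121644973, which end in the first. On chromosome 8 none lay between 20032755 and 22039574, a gap of 2007 kb that takes up the second part of the window and all of the 1 Mb to its right. On chromosome 5 the longest gap was 50.4 kb, from 15061971 to 15112410, within the crowded bins. These gaps lack calls, which does not mean that they lack methylation. Whether reads could be placed there was not examined.

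In the 1 Mb on either side of the windows, the share of regions with a peak in both E12.5 libraries was lower. By number this did not hold for chromosome 4, where the right side had 30 such regions and the window 20. Both E12.5 libraries had a peak in 14 of 225 and 30 of 269 regions to the left and right of the chromosome 4 window, 5 of 104 and 3 of 110 beside chromosome 5, and 11 of 191 to the left of chromosome 8. These are 6.22%, 11.2%, 4.81%, 2.73% and 5.76%, so the right side of the chromosome 4 window was above the genome share of 7.93%. None of these 899 flanking regions was called at E12.5 only. The windows' edges lay among regions with few calls on chromosome 5. The first member on chromosome 5, at 14500412 to 14500703, was called in E14.5 replicate 1 alone with 19 tags. The nearest region outside it, at 14499400 to 14499729, was called in E14.5 replicate 2 with 14 tags and ISC replicate 1 with 19. On chromosome 4 the last member, at 122498507 to 122499148, held 31 to 47 tags in 6 libraries, and the region after it, at 122500397 to 122501605, held 21 to 58 in 7.

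A peak in both E12.5 libraries and in none of the other 6 was found at 22 members, 3 on chromosome 4, 9 on chromosome 5 and 10 on chromosome 8. That is 4.05%, 5.59% and 8.93% of the members, against 0.132% of all regions. As a share of the members with a peak in both E12.5 libraries the 22 were 17.3%, against 1.66% over the genome. With the E14.5 libraries alone required to lack a peak there were 24 members, against 0.276% of all regions. The 3 windows held 0.0729% of all regions and 22 of the 627 E12.5-only regions of the genome (3.51%). Of the 22, 21 lay in the crowded bins, to whose choice they themselves added. The reverse pattern, a peak in all 6 other libraries and in neither E12.5 library, was found at 9 members, 5 on chromosome 4 and 2 each on chromosomes 5 and 8 (2.59% in all), against 5.49% of all regions. The members with peaks in both E14.5 lists but in neither of the E12.5 lists numbered 14, 19 and 5 (18.9%, 11.8% and 4.46%), against 23.9% of all regions. A count that asks for 1 E12.5 library is larger: without E12.5 replicate 1 it was 8, 14 and 17 members on chromosomes 4, 5 and 8, and without replicate 2 it was 6 on chromosome 4. With all lists shortened to an equal 84990 peaks by score, the E12.5-only count was 18 on chromosome 5 and 16 on chromosome 8 (17.1% and 18.6% of what was then found there), against 1.84% over the genome.

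The E12.5-only peaks were modest in size. They held 22 to 128 tags with a median of 40.5, against a median of 37 over the 627 such regions of the genome. Fold enrichment, the authors' value for tags over the local background of the same library, ran from 4.12 to 10.3. Their scores stood at a median percentile of 68.1 within their own E12.5 lists. The nearest peak of another library lay 78 to 6108 bp away, and at 7 of the 22 members it was closer than 1000 bp.

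The region at 15003975 to 15004918 on chromosome 5 was the largest of them, 944 bp wide with 103 and 128 tags in the E12.5 replicates. No other E12.5-only region in the genome held more than 128 tags in a library. It ended 381 bp before a region called in all 8 libraries, described below. The region at 15037197 to 15037624 had 41 and 39 tags with 8.54-fold and 7.27-fold enrichment, and the nearest peak of another library lay 2091 bp from it. The region at 14872935 to 14873570 held 57 and 41 tags and stood 3471 bp from the next peak of another library. The region at 14954113 to 14954653 held 53 and 59 tags. These 4 ranked highest on chromosome 5, and both replicates placed each of them above the 69th percentile of its list.

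On chromosome 8 the region at 19962894 to 19963402 held 51 and 49 tags and stood at percentile 94.1 or above in both E12.5 lists, the highest of all 22. Peaks of other libraries came within 237 bp of it. The region at 19883893 to 19884294, with 39 and 46 tags, was more isolated, with no other library's peak within 3178 bp. Those at 20022550 to 20023096 and at 20017354 to 20017835 held 46 and 50, then 39 and 41 tags. All 4 were 402 to 547 bp wide.

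The 3 regions on chromosome 4 ranked low in at least 1 of the E12.5 lists. They lay at 121658589 to 121658970, 121694290 to 121694700 and 121668722 to 121669237, with 27 and 26, 27 and 37, and 40 and 42 tags. The lower of their replicate percentiles was 19.7, 7.34 and 6.51. None remained when each list was held to the stricter 50% of its peaks.

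**Figure D2:**
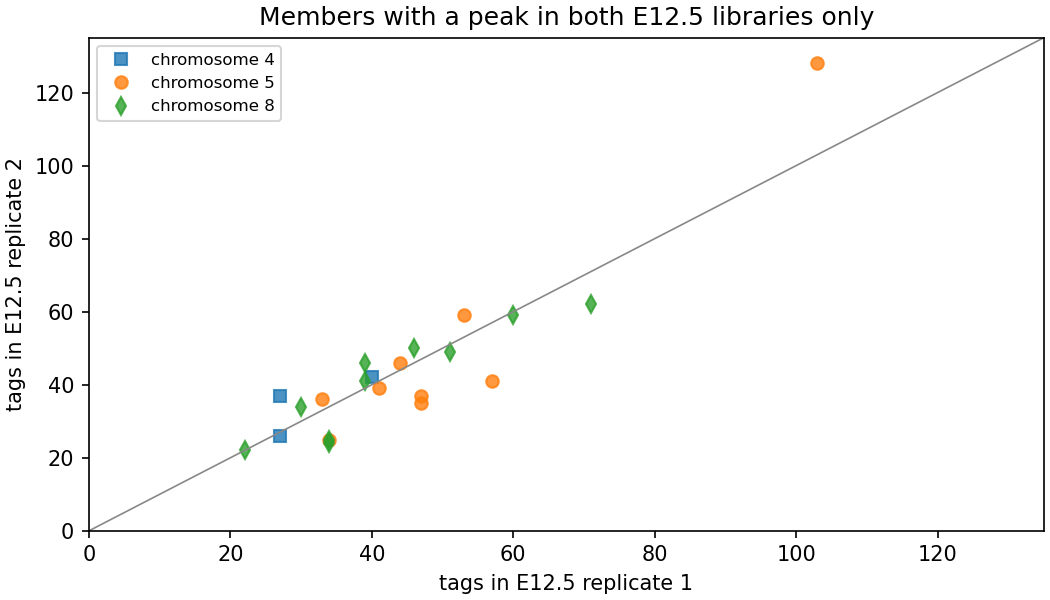
Tags in E12.5 replicate 2 against tags in E12.5 replicate 1 for the 22 members called in both E12.5 libraries and in no other, by window, with the line of equal tags. The points lie near the line between 22 and 71 tags, apart from the chromosome 5 region with 103 and 128.

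A further 3 members had peaks in both E12.5 libraries and in 1 other library, which makes 25 with at most 1 other, against 0.32% of all regions. They were named after their values were seen. One on chromosome 8, at 19939401 to 19940556, had 164 and 95 tags at E12.5 and 19 in E14.5 replicate 2. On chromosome 5 that at 14973203 to 14973899 held 86 and 81 tags at E12.5 and 17 in the same E14.5 library. On chromosome 4 that at 121689172 to 121689742 held 45 and 46 tags at E12.5 and 30 in ISC replicate 2. The E14.5 and ISC libraries were 0.57 to 0.63 times as deep as the E12.5 libraries, so equal RPM would give fewer tags there.

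No E12.5 peak was found at 151 members. Outside the crowded bins, which were picked on E12.5 calls, they were 115 of 157 members (73.2%), near the 69.9% of all regions. On chromosome 4 the region at 122423435 to 122424664 had 75 and 63 tags for E14.5, 74 and 69 for ISC and 84 and 90 for enterocytes, and that at 121368450 to 121369195 held 28 to 63 tags in the same 6 libraries. On chromosome 8 the regions at 19854962 to 19855599 and at 19893381 to 19894100 held 18 to 50 and 22 to 57 tags in the 6. The chromosome 5 region at 14817021 to 14818027 held 28 to 90 tags. The region at 14999513 to 15000817 held 43 to 101 tags in the 6 libraries, a few kb before the largest E12.5-only region, so close neighbours showed opposite patterns.

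Summed over the peaks of a window, RPM (tags in peaks, scaled to a library of 1000000 tags) did not set E12.5 above the others. On chromosome 5 the E12.5 libraries had 107 and 109, those of E14.5 147 and 127, those of ISC 90.6 and 134, and those of enterocytes 110 and 93.1. On chromosome 8 they had 93.2 and 92.1 at E12.5, with 115 and 106 for E14.5, 104 and 117 for ISC and 102 and 110 for enterocytes. On chromosome 4 they had 40.1 and 35.8 at E12.5, with 81.4 and 69.7 for E14.5, 64.5 and 92.0 for ISC and 78.4 and 81.5 for enterocytes. E12.5 was below every other library on chromosomes 4 and 8, and inside the range of the others on chromosome 5. With lists shortened to an equal number of peaks, the ratio to the other groups given next turned from 0.920 to 1.27 on chromosome 5 and from 0.849 to 1.09 on chromosome 8.

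The ratio of E12.5 to the mean of the other 3 groups was 0.487 on chromosome 4, 0.920 on chromosome 5 and 0.849 on chromosome 8, against 0.273 for all peaks of the genome. As a ratio to that mean, covered length went the other way on chromosomes 5 and 8. E12.5 peaks covered 47.7 kb ± 0.427 (SD, n = 2) on chromosome 5 and 39.3 kb ± 0.899 on chromosome 8, 1.09 and 1.11 times the mean of the other groups, while over the genome they covered 0.389 times as much. Enterocyte peaks covered more than those of E12.5, 50.2 kb on chromosome 5 and 43.4 kb on chromosome 8. The means of E14.5 and ISC were lower, 41.3 and 39.8 kb on chromosome 5 and 28.8 and 33.8 kb on chromosome 8. On chromosome 4 the E12.5 peaks covered 21.5 kb ± 1.43, 0.712 times the others. RPM per kb of peak were 2.26 ± 0.0481 at E12.5 on chromosome 5, against 2.05 to 3.43 as means of the other groups, and 2.36 ± 0.0328 on chromosome 8, against 2.46 to 3.94. On chromosome 4 they were 1.76 ± 0.0225, against 2.15 to 3.08. As a ratio to the other groups this was 0.661, 0.818 and 0.731 on chromosomes 4, 5 and 8, against 0.692 over the genome. In the crowded bins alone, picked on E12.5 calls, summed RPM at E12.5 were 0.636, 1.16 and 0.991 times the mean of the other groups. Covered length was 1.04, 1.49 and 1.41 times that mean. On chromosome 5 the 95.5 RPM at E12.5 lay below the 99.3 of E14.5 and above the 81.0 of ISC and 65.8 of enterocytes. On chromosome 4 E12.5 peaks covered 19.9 kb of these bins, enterocyte peaks 23.9 kb, and those of E14.5 and ISC 15.3 and 18.2 kb.

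Scaled to the tags inside peaks, the direction was opposite. On chromosome 5 the E12.5 libraries had 0.108% and 0.145% of their in-peak tags in the window, and the other 6 had 0.0282% to 0.0426%. On chromosome 8 they had 0.0947% and 0.123%, against 0.0300% to 0.0439%, and on chromosome 4 0.0407% and 0.0480%, against 0.0216% to 0.0296%. In all 3 windows both E12.5 libraries were above every other library on this scale, by 1.78, 3.40 and 3.09 times the mean of the other groups on chromosomes 4, 5 and 8. Compared with RPM, this scale raises E12.5 at all regions, since a smaller share of its tags lies in peaks. Over whole lists the ratio on this scale is 1 by construction.

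Peak width did not separate E12.5 from the other groups. The median was 638 and 565 bp in the E12.5 replicates on chromosome 5, against 429 and 247 at E14.5, 466 and 458 in ISC, and 782 and 600 in enterocytes. On chromosome 8 it was 537 and 487 bp at E12.5, and on chromosome 4 612 and 469 bp. The ratio to the mean of the other groups was 0.996, 1.21 and 1.02 on chromosomes 4, 5 and 8, against 1.04 over whole lists. The widest peaks were those of enterocyte replicate 1 (782 to 798 bp) and the narrowest those of E14.5 replicate 2 (227 to 258 bp), as over their whole lists (849 and 272 bp).

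E12.5 peaks in the windows ranked high in their own lists, with a median score percentile of 90.9 and 86.1 on chromosome 5, 90.4 and 86.3 on chromosome 8, and 76.7 and 67.2 on chromosome 4. The lists differ in length, so these percentiles are not set against those of the other libraries. Median fold enrichment at E12.5 was 6.24 and 6.28 on chromosome 5 and 6.18 and 6.04 on chromosome 8, above the 4.42 and 4.63 of the whole E12.5 lists. As a ratio to the other groups it was 0.792 on chromosome 5 and 0.706 on chromosome 8, against 0.725 over whole lists. On chromosome 4 the median fold enrichment at E12.5 was 4.71 and 4.96, with a ratio of 0.696.

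**Figure D3:**
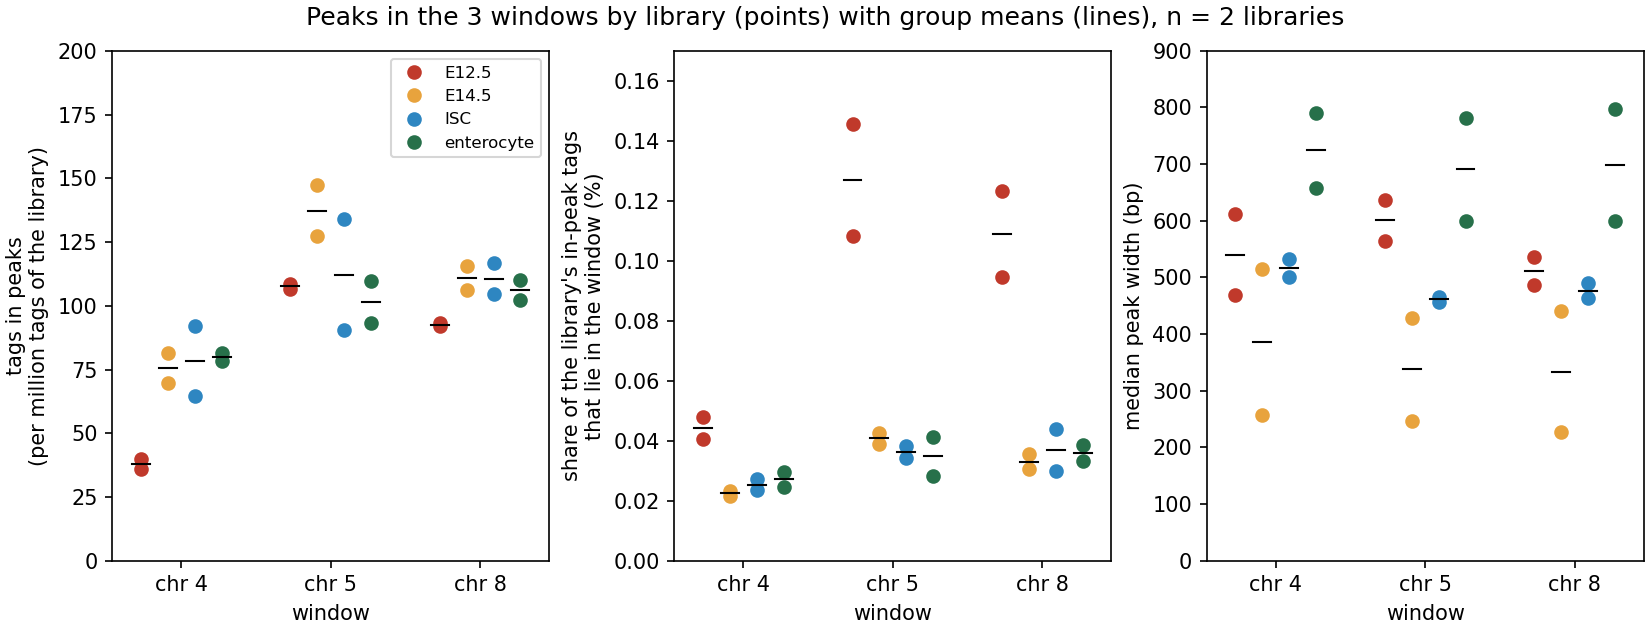
Tags in peaks as RPM (left), share of the library's in-peak tags that lie in the window (middle) and median peak width (right) for the 3 windows, with 1 point per library and a line at each group's mean. The E12.5 points are the lowest on chromosomes 4 and 8 in the left panel and the highest in all 3 windows in the middle panel, while widths overlap.

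For members called in all 8 libraries every library has a tag value. These tags are sums over each library's own peaks, which differ in width and of which a region can hold several, so the ratios below mix the extent called with the signal. There were 13 such members on chromosome 4, 28 on chromosome 5 and 35 on chromosome 8, 17.6%, 17.4% and 31.2% of the members, against 5.16% of all regions. Over the 24563 such regions of the genome, E12.5 was lower than the mean of the other 6 libraries by a median log2 ratio of -0.87, with the 5th and 95th percentiles at -1.69 and -0.24. The medians in the windows were -0.68 on chromosome 4, -0.02 on chromosome 5 and -0.42 on chromosome 8. Set against the genome median, the members stood higher by 0.19, 0.85 and 0.45 on the log2 scale. This step removes a scaling common to the E12.5 libraries or to the others, but not differences in scaling among them. Scaled to tags inside peaks, the values were 0.20, 0.86 and 0.48. Computed for each E12.5 replicate on its own, the difference was 0.89 and 0.83 on chromosome 5, 0.43 and 0.55 on chromosome 8, and 0.05 and 0.22 on chromosome 4. In the flanks the same value was 0.17 to the right of the chromosome 4 window and 0.28 to the left of the chromosome 8 window, so the 0.19 of chromosome 4 was no higher than in some flanking sequence. The value for chromosome 4 was 0.016 without E12.5 replicate 2 and 0.06 without enterocyte replicate 1.

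On chromosome 5, 24 of the 28 members in all 8 libraries lay above the genome median, on chromosome 8 32 of 35 and on chromosome 4 9 of 13. The 4 exceptions on chromosome 5 included the 3 such members outside the crowded bins, whose median log2 ratio was -1.10. Inside the bins it was -0.005 over 25 members. Of the 246 regions that make up the top 1% of the genome by this ratio, 15 were members, 12 on chromosome 5, 2 on chromosome 8 and 1 on chromosome 4. Both of these counts describe the contrast by which the windows were chosen.

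The median RPM over these members was 1.88 ± 0.184 (SD, n = 2) at E12.5 on chromosome 5. That is 1.82 ± 0.00744 times the same libraries' median over the 24563 regions of the genome called in every library. For E14.5, ISC and enterocytes the same multiple was 1.13 ± 0.112, 1.00 ± 0.0276 and 0.837 ± 0.00575. On chromosome 8 it was 1.25 ± 0.149 at E12.5 and 0.982 to 1.02 as means of the other groups. On chromosome 4 it was 1.82 ± 0.0440 at E12.5, 1.48 ± 0.406 for E14.5, 1.47 ± 0.233 for ISC and 1.70 ± 0.305 for enterocytes. On chromosome 5 both E12.5 libraries were at 1.82 or above and the other 6 ranged from 0.833 to 1.21. On chromosome 8 the E12.5 libraries were at 1.15 and 1.36, and on chromosome 4 the mean of every group was above 1.

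**Figure D4:**
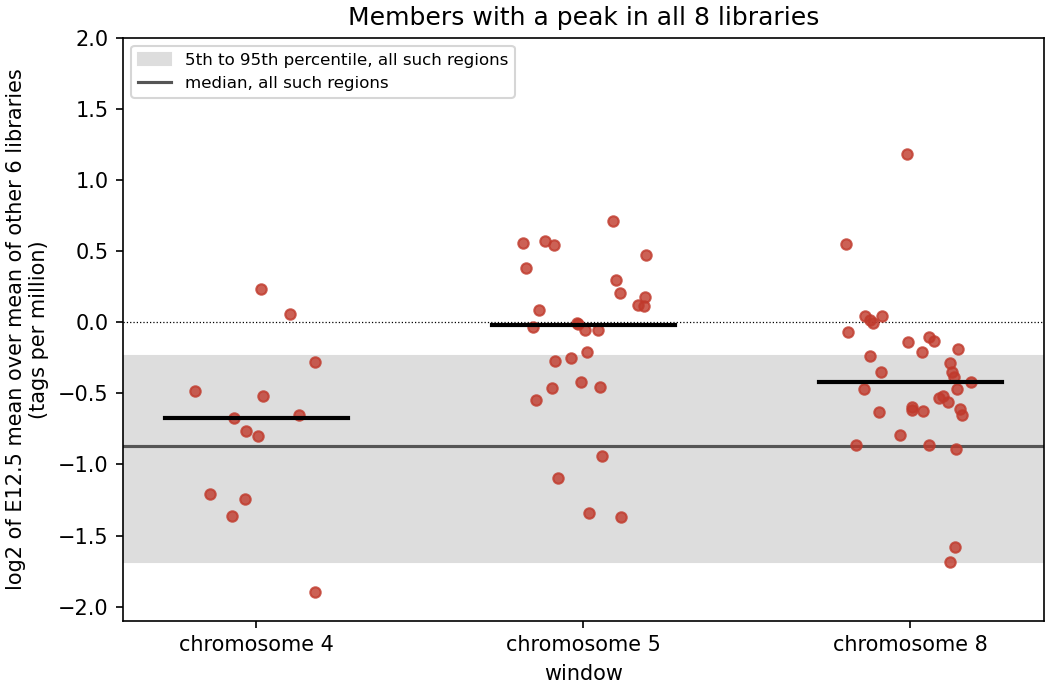
Log2 ratio of the E12.5 mean to the mean of the other 6 libraries in RPM (vertical axis) for the members called in all 8 libraries, with 1 point per member, a black line at each window's median, and the median and 5th to 95th percentile of all 24563 such regions in grey. The chromosome 5 median of -0.02 and most of its points lie above the grey band, whose upper edge is at -0.24.

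At 6 members, 4 on chromosome 5 and 2 on chromosome 8, RPM were higher in both E12.5 libraries than in every other library. That is 14.3% and 5.71% of the members in all 8 libraries, against 0.11% of all such regions, 27 in number. The opposite, both E12.5 libraries below every other, held at 7 of 13 members on chromosome 4, 6 of 28 on chromosome 5 and 17 of 35 on chromosome 8, against 61.6%. The members named next were chosen after their values were seen.

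The region at 19931216 to 19932587 on chromosome 8 had the highest E12.5 ratio of all 24563 regions, a log2 ratio of 1.18. It held 3.96 and 3.68 RPM at E12.5, with 1.82 and 1.2 for E14.5, 1.42 and 0.954 for ISC and 2.40 and 2.30 for enterocytes. Both E12.5 values were above the other 6, and the enterocyte libraries came next. The region at 19947080 to 19948289 held 3.20 and 3.37 at E12.5 and 1.504 to 3.07 in the others, the highest being enterocyte replicate 1, which lay closer to the lower E12.5 value than the E12.5 replicates lay to each other. Between them lay the region at 19939401 to 19940556, with 164 and 95 tags at E12.5 and a peak in 1 other library.

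The region at 15005299 to 15007740 on chromosome 5, next to the largest E12.5-only region, held 6.66 and 6.42 RPM at E12.5. E14.5 had 4.31 and 4.64, ISC 2.90 and 3.98, and enterocytes 5.10 and 3.04. Its log2 ratio of 0.71 ranked 10 in the genome. The region at 15178566 to 15179364 held 2.82 and 2.65 at E12.5 and 1.48 to 2.29 in the others, that at 14990551 to 14991350 held 1.79 and 1.73 against 1.08 to 1.53, and that at 15195369 to 15197297 held 6.32 and 6.64 against 3.14 to 6.16. The last was separated from E14.5 replicate 1 by less than the gap between the E12.5 replicates.

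**Figure D5:**
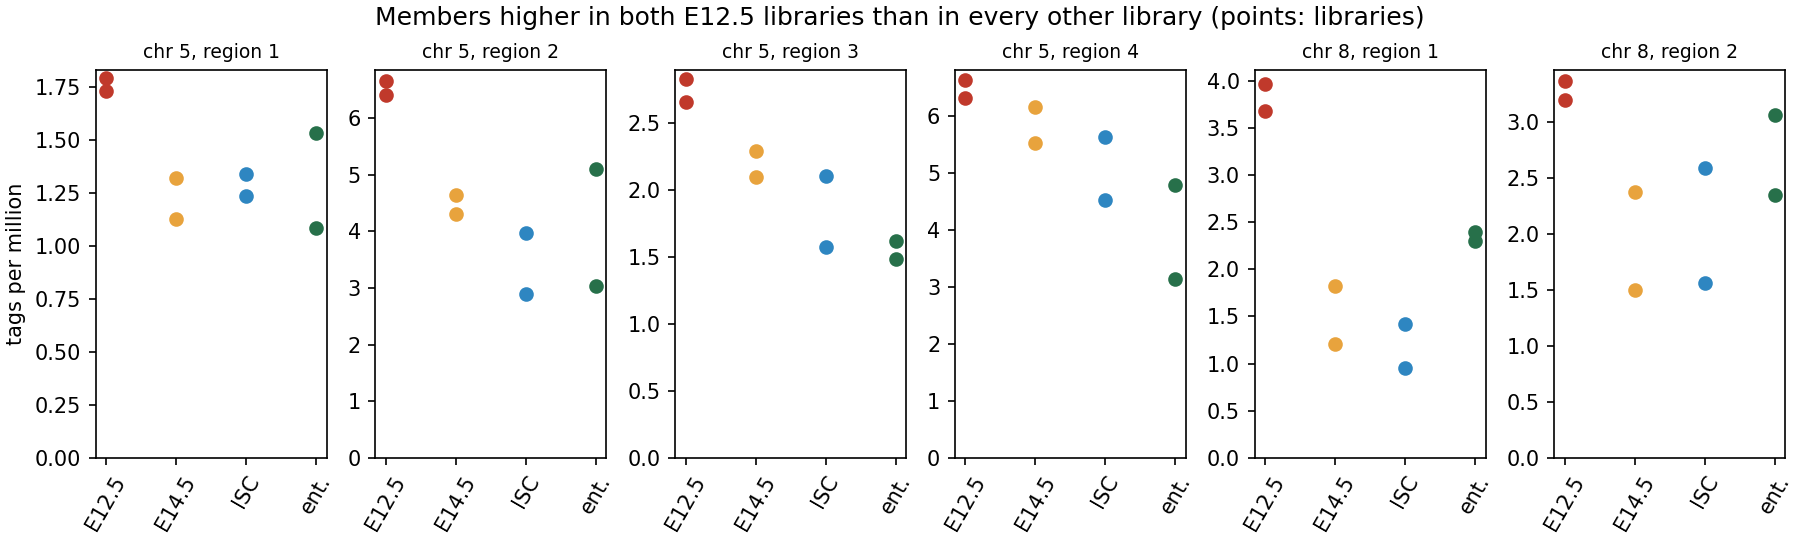
RPM in each library (points) by group for the 6 members at which both E12.5 libraries were above every other, in the order of their positions, 4 on chromosome 5 and 2 on chromosome 8 (ent. stands for enterocyte). Relative to its level, the gap to the other groups is widest in chromosome 8 region 1, with 3.96 and 3.68 at E12.5 against at most 2.40.

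Among the members called in all 8 libraries, the 2 per window that ranked highest in their lists were as follows. One on chromosome 5, at 15185975 to 15187794, had 334 and 425 tags at E12.5, with 326 and 319 for E14.5, 207 and 288 for ISC and 305 and 253 for enterocytes, with a log2 ratio of -0.21. That at 14970647 to 14971592 held 115 to 181 tags in the 8 libraries, at a fold enrichment of 16.8 and 18.8 at E12.5. On chromosome 8 the regions at 19922092 to 19923251 and at 19760732 to 19762073 held 104 to 181 and 81 to 165 tags, with log2 ratios of -0.19 and -0.13. All 4 lay above the genome median of -0.87.

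On chromosome 4 the strongest shared members had lower ratios. One, at 121671066 to 121672866, had 179 and 165 tags at E12.5 and 168 to 219 in the others. Its log2 ratio of -0.80 lay above the genome median of -0.87. The other, at 121755600 to 121757631, lay below that median with a ratio of -1.36. The lowest ratio among all members in all 8 libraries, -1.90, was that of the region at 121681487 to 121685012, which held 1.58 and 1.57 RPM at E12.5 and 4.23 to 6.97 in the others. Some members on the other windows were low as well, such as 19778712 to 19779706 on chromosome 8, with a ratio of -1.68 and 0.453 and 0.758 RPM at E12.5 against 1.69 to 2.29.

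Contrasts that leave out E12.5 were not themselves used to choose the windows and could be tested, on summed RPM. The calls of these groups did enter the choice, through the absence of their peaks, so the contrasts are not wholly free of it. On chromosome 5 the mean was 137 ± 14.1 (SD, n = 2) at E14.5 and 107 ± 19.95 (n = 4) in the adult libraries, and the exact two-sided permutation p was 0.20, where the smallest p that 2 against 4 libraries allow is 0.067. On chromosome 4 the means were 75.6 ± 8.27 and 79.1 ± 11.4 (exact permutation p = 0.73), and on chromosome 8 111 ± 6.53 and 108 ± 6.42 (exact permutation p = 0.67). One adult library, ISC replicate 2 with 134, lay inside the E14.5 range on chromosome 5. The adult set joins ISC and enterocyte libraries, so its SD mixes cell type and replicate. The test treats these libraries as independent, and the labels do not say whether they are paired.

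ISC and enterocytes gave 78.2 ± 19.5 and 79.9 ± 2.17 on chromosome 4 (exact permutation p = 1.0), 112 ± 30.6 and 101 ± 11.9 on chromosome 5 (exact permutation p = 1.0), and 111 ± 8.68 and 106 ± 5.36 on chromosome 8 (exact permutation p = 0.67, n = 2 in each group). With 2 against 2 libraries the smallest possible p is 0.33, so these tests could not reach 0.05. Adjusted over the 6 tests by Benjamini-Hochberg, every p was 1. The groups overlapped in each of the 3 windows in both contrasts.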

How the data were processed

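Methylated DNA captured with a methyl-CpG-binding protein (MethylMiner) from 1 ug of DNA sheared to 150 to 250 bp was sequenced in 8 libraries. Per the submitters' processing notes the tools were bcl2fastq 1.8.4, Bowtie 1.1.2, SAMtools 1.2 and MACS 1.4.2, with build mm9. Each library had its own peak calling with no control, per the file headers, at a p-value of 1e-05 with band width 200 bp, tag size 180 bp and the regional background taken over 10000 bp. The deposited peak lists give the count of tags per peak, a score made from the p-value (used only to rank peaks within a list) and the fold enrichment over the local background as the authors' caller wrote them, with the position and width. How tags that match several copies were placed is not given in the sources used here.

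Peaks of all libraries were merged where they shared at least 1 bp, with Python 3.11.15, numpy 2.4.6 and pandas 2.3.3, and drawn with matplotlib 3.10.9. RPM values are tags in peaks scaled to a library of 1000000 tags, by the total tags in the headers (31438314 to 55442400). A region with no peak in a library has no tag count there, so absence of a peak is absence of a call at this depth and not of methylation. Tags are amplified fragments without molecular identifiers. E14.5 was compared with the 4 adult libraries, and ISC with enterocytes, by exact two-sided permutation tests adjusted over 6 tests. The scripts were tested on simulated data. With 2 replicates, p-values measure only the spread between these libraries.

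Named per window were the 4 E12.5-only regions with the highest lower score percentile in the E12.5 lists, the 2 shared by all 8 libraries with the highest lowest percentile, the 2 with no E12.5 peak and the most other libraries, and the regions at the edges. Regions named by their ratio, those in 1 other library, the bins, the pair of like regions and the median relative to the genome were chosen after seeing the values. The windows, members and lists were chosen with earlier results of these data known. The alternatives were equal-length lists, the stricter 50% of each list, regions wholly inside a window, merging within 500 bp, peaks covering 50% of a region, scaling to tags inside peaks, leaving out each library, and a replicate block. No genes or sequences are given, since the annotation at hand was of another build and positions were not converted.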

Additional observations from a re-analysis of the deposited data

How the results depend on the processing

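The number of E12.5-only members was 0 on chromosome 4 with the stricter 50% of each list, 18 on chromosome 5 and 16 on chromosome 8 with equal-length lists, 16 on chromosome 5 where peaks had to cover 50% of the region, and 6 on chromosome 8 where peaks within 500 bp were merged. Leaving out each library in turn gave 3 to 8 on chromosome 4, 9 to 14 on chromosome 5 and 10 to 17 on chromosome 8. The ratio of summed RPM was 0.604, 1.27 and 1.09 on chromosomes 4, 5 and 8 with equal-length lists, 1.78, 3.40 and 3.09 when scaled to tags inside peaks, and 0.879 on chromosome 8 with the stricter 50%. Without 1 library it ranged from 0.460 to 0.518, 0.866 to 0.980 and 0.833 to 0.865. The width ratio ranged from 0.865 to 1.13, 1.14 to 1.29 and 0.950 to 1.09. The median relative to the genome ranged from 0.016 to 0.19, 0.75 to 0.91 and 0.39 to 0.49 on the log2 scale, an alternative added after seeing the data.

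The difference between E14.5 and the adult libraries ranged without 1 library from -8.40 to 0.780 on chromosome 4, the sign turning without ISC replicate 2 (exact permutation p = 1.0), from 24.95 to 39.4 on chromosome 5 and from 0.454 to 5.24 on chromosome 8. On chromosome 8 it was -5.97 with equal-length lists and -33.9 when scaled to tags inside peaks. The difference between ISC and enterocytes was 0.398 on chromosome 4 and -0.547 on chromosome 8 with equal-length lists, and 3.09 on chromosome 4 with the stricter 50%. The cause of these turns was not tested, and no setting allowed a p under 0.05. Leaving out a library of a group of 2 in these tests was not run. The labels do not say whether the replicate numbers pair the samples. Differences between replicates correlated between groups by -0.017 to 0.067 over 24563 regions, which cannot settle it, since paired samples need not share such differences. With the replicate block, the differences between ISC and enterocytes were -1.71, 10.8 and 4.43, with exact p of 1.0, 1.0 and 0.50.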
